A study of Arabidopsis thaliana with 54 samples.

Results

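The genes described here are 150 genes of the Arabidopsis rosette whose mean level in the cold fell at each step from 0 to 4, 6, 12 and 24 h. The samples of 2 h were not part of that order. For each of 54 libraries, counts were scaled by the column total to CPM (counts per 1e6 counts), and log2(CPM + 1) was averaged over the 9 libraries of each time. Of 36632 genes in the table, 7969 had a mean at 0 h of at least log2(11), which corresponds to about 10 CPM, and 721 of these were lower at 4 h than at 0 h, lower again at 6 h, at 12 h and at 24 h. The 150 with the largest difference between 0 h and 24 h were kept. That difference, on the log2(CPM + 1) scale, ran from 5.36 for GASA6 to 1.35 for AT3G06780, with a median of 1.8. It was at least 2 in 57 members and at least 3 in 12, while its median over all genes tested was -0.15 (higher at 24 h). The last genes inside were AT3G11690 (1.37), AT1G78830 (1.35) and AT3G06780 (1.35), and the first outside were AT2G44290 (1.34), AT1G09750 (1.33) and FBA1 (1.33). Because the levels at 0, 4, 6, 12 and 24 h chose the members, their course over time is given as a description. Counts of edgeR calls against 0 h are printed for members with nothing read from them and for genes of the same families that are no members, and tests of the members are those between growing conditions.

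Whole rosettes of the Col-0 accession were sequenced in 3 conditions at 6 times from 0 to 24 h (2, 4, 6 and 12 h lay between), with 3 libraries in each of 18 groups, 1 from each independent experiment (Exp1, Exp2 and Exp3), and with 5 samples pooled in each library. In C28P the cold (4 °C) began at an age of 28 days, with no cold before it, and in C35P, the control for development, it began at 35 days. In C28PLT a priming spell of 3 days at 4 °C began at day 28, a lag of 7 days in warm long days came after it, and a second exposure to 4 °C, called triggering, followed. The 0 h plants of each condition came from long days of 16 h light at 200 µmol and a day temperature of 20 °C, and light in the cold was 90 µmol, so that cold and lower light cannot be told apart. Of the later samplings only that of 24 h fell at the clock time of 0 h, and samples kept warm until 2 to 12 h were not analysed here, so that hours in the cold and hours of the day cannot be told apart either.

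Growing leaves enlarge by taking up water through aquaporins in the plasma membrane and the tonoplast while expansins and xyloglucan endotransglucosylase/hydrolases loosen the cell wall. Light-harvesting proteins bind chlorophyll around photosystems I and II and pass excitation to the reaction centres. Phytochrome-interacting factors are transcription factors that promote growth in warmth and shade and bind G-box and related E-box sequences, and touch genes such as TCH4 are known for rapid, transient transcripts after mechanical stimulation.

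The 250 bases before the annotated start of each member were read from the TAIR10.1 genome (RefSeq), and 4 of them are shown because they belong to the gene with the largest difference and to leading members of the light-reaction and water-channel groups, and because they hold a G-box (CACGTG) or a PBE-box (CACATG, or CATGTG on the other strand). Capitals mark the motif, and each window is written 5′ to 3′ on the strand of its gene. The windows are chr1:28052780-28053029 on the plus strand for GASA6, chr1:19052583-19052832 on the minus strand for AT1G51400, chr3:5505110-5505359 on the plus strand for DELTA-TIP and chr3:2717307-2717556 on the plus strand for LHCB4.2.
GASA6: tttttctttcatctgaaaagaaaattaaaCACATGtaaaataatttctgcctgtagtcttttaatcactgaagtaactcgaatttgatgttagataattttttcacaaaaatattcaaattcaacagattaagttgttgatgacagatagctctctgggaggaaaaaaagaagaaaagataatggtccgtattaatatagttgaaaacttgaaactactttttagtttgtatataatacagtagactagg
AT1G51400: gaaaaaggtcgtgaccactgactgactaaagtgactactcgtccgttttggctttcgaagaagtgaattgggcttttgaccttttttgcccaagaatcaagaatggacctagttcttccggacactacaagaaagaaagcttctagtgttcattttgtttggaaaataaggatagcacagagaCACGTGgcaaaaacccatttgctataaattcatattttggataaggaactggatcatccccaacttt
DELTA-TIP: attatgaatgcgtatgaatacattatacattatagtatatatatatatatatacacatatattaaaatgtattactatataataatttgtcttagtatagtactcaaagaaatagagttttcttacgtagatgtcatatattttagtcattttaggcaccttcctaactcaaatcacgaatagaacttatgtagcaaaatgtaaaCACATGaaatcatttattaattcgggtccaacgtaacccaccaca
LHCB4.2: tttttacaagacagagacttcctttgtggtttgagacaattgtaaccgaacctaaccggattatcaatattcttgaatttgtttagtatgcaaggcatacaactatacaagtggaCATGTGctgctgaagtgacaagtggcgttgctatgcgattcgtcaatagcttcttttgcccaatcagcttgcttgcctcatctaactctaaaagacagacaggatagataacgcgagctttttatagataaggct

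A G-box lay in 10.7% of the members' windows and in 7.30% of the windows of all genes tested, and a PBE-box lay in 16.7% and 11.1%. Counting windows with either motif, the shares were 26.0% (39 members) and 17.3%. The telo-box AAACCCTA lay in 0 of 150 members' windows and in 3.80% of windows of genes tested. The evening element AAATATCT (4.0% and 4.99%), the I-box GATAAG (12.0% and 12.3%) and the CRT/DRE core CCGAC (10.7% and 13.01%) were searched in the same way. Every motif was searched on both strands, CACGTG reads the same on both, and each window shown holds 1 G-box or PBE-box. The windows of AT1G51400 and LHCB4.2 also hold an I-box, which is not in capitals. These shares describe letters in a window, and no test was made on them.

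Libraries held 23408399 to 34452480 counts. The C28P library of 0 h in Exp1 stood apart: PRR5, a clock gene with a strong daily rhythm, had 75.9 CPM there, 0.937 and 0.854 CPM in the other C28P libraries of 0 h, and at most 1.47 CPM in the other 8 libraries of 0 h. The label gives this library as 0 h, and whether it was taken at the clock time of the other libraries of 0 h was not tested. In that library 125 of the 150 members were lower than the mean of the other C28P libraries of 0 h, by a median of 0.46 on the log2 scale, against a median of 0.10 higher over all genes tested. With it as part of the baseline the median member of C28P was at -0.56 at 4 h and -1.48 at 12 h on the log2 scale, and without it at -0.75 and -1.62. Leaf mesophyll markers summed to 42657 to 75188 CPM, root hair markers stayed at or below 0.201 CPM, floral organ markers at or below 3.22 CPM and seed markers at or below 2.51 CPM per gene. The mesophyll sum was 57851 to 75188 CPM at 0 h and 43548 to 54351 CPM at 24 h, and its part in the members' levels was not tested. In whole rosettes, fewer cells of a type and less RNA per cell cannot be told apart.

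The members gave a median of 6.19% of all counts at 0 h (5.70 to 7.10% over 9 libraries), 5.40% at 2 h, 4.79% at 4 h, 3.99% at 6 h, 2.57% at 12 h and 1.7% at 24 h (1.39 to 1.94%). The libraries of 0 h and 24 h did not overlap in this share. For single genes, the highest of the 9 libraries of 24 h lay below the lowest of the 9 libraries of 0 h in 129 of 150 members, against 4.48% of genes tested. Without the C28P library of Exp1 at 0 h the count was 136 members, against 5.84% of genes tested. The rule used these times, so the counts describe how far members separated in single libraries and support nothing further.

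**Figure D1:**
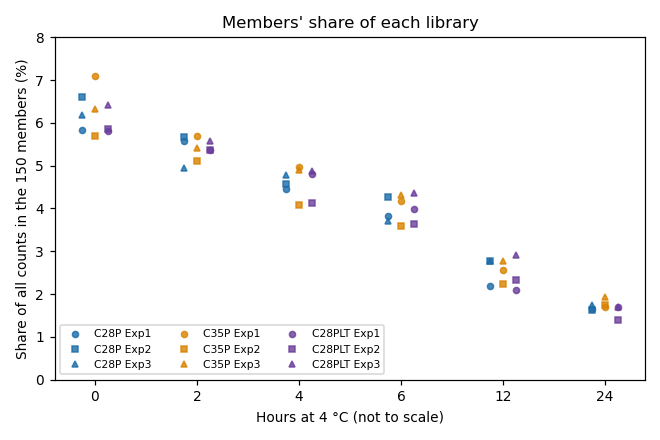
Share of all counts (percent, linear axis from 0) that fell on the 150 members in each of the 54 libraries, by hours at 4 °C; colour gives the condition and marker shape the experiment. The 9 libraries of 0 h lie between 5.70 and 7.10% and those of 24 h between 1.39 and 1.94%.

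The decline was spread over the day. On the log2(CPM + 1) scale the median member had reached 11.5% of its 24 h difference at 2 h, 29.2% at 4 h, 48.2% at 6 h and 81.4% at 12 h. Per hour, the median decrease was 0.12 from 0 to 2 h, 0.17 from 2 to 4 h, 0.16 from 4 to 6 h, 0.10 from 6 to 12 h and 0.03 from 12 to 24 h. Compared with the 0 h library of the same condition and experiment, 24 members were lower in 9 of 9 libraries at 2 h, 81 at 4 h, 119 at 6 h, 142 at 12 h and 144 at 24 h. The same count was not made over all genes tested. Since the rule used the 0 h libraries, these counts are a description of the members only. The step between 12 and 24 h was the slowest for the median member, and most of the decline therefore lay within the first 12 h.

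**Figure D2:**
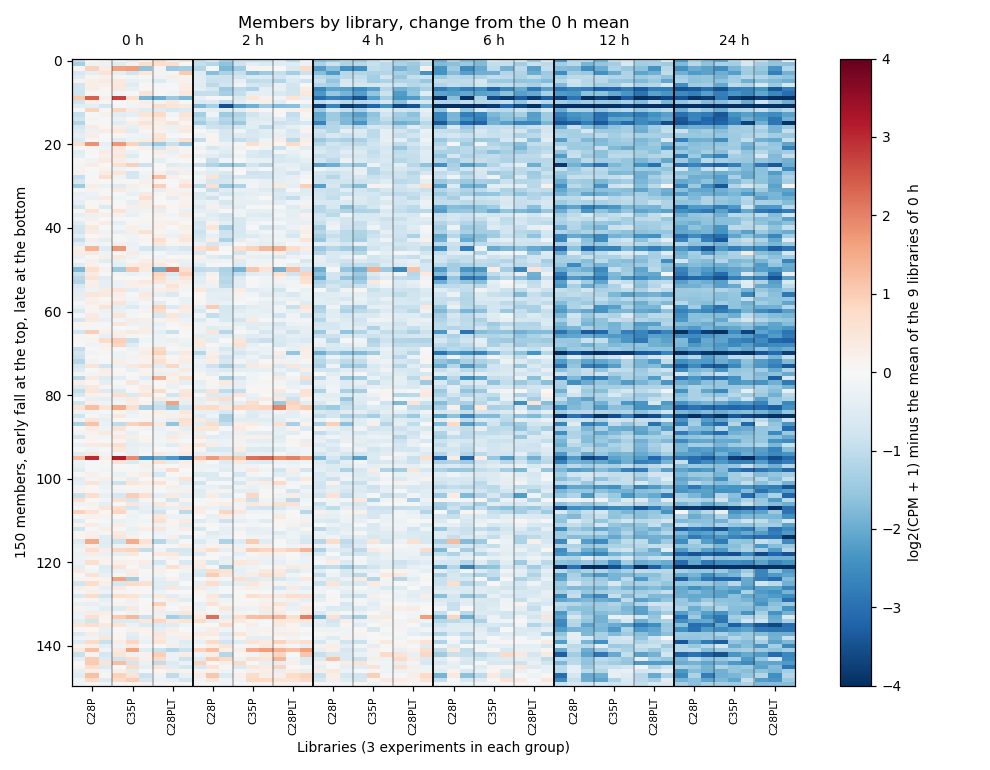
Level of each of the 150 members (rows) in each of 54 libraries (columns), as log2(CPM + 1) minus the mean of the 9 libraries of 0 h; blue is lower and red higher. Rows run from the member with the earliest fall to the latest, and the blue deepens from 4 h to 24 h in every condition; a few rows, TCH4 and EXO among them, are red in single C28P and C35P libraries of 0 h.

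Grouped by the product in the annotation, after the members had been seen, 70 of the 150 fell into 8 role groups and 80 into none. The medians of the groups differed in timing, while the ranges of their genes overlapped. At 4 h single genes had reached 7.71 to 64.1% in the cell wall group and 18.3 to 54.8% among water channels. The ranges were 0.225 to 44.5% in the light reactions and 13.5 to 29.2% in carbon fixation, photorespiration and chlorophyll synthesis. Median shares of the 24 h difference reached at 6 h were 59.2% for 10 genes of the cell wall, expansion and cytoskeleton, 48.4% for 8 water channels, 35.5% for 12 genes of the light reactions and 31.4% for 6 genes of carbon fixation, photorespiration and chlorophyll synthesis. No test was made of these differences, since the rule used the levels.

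**Figure D3:**
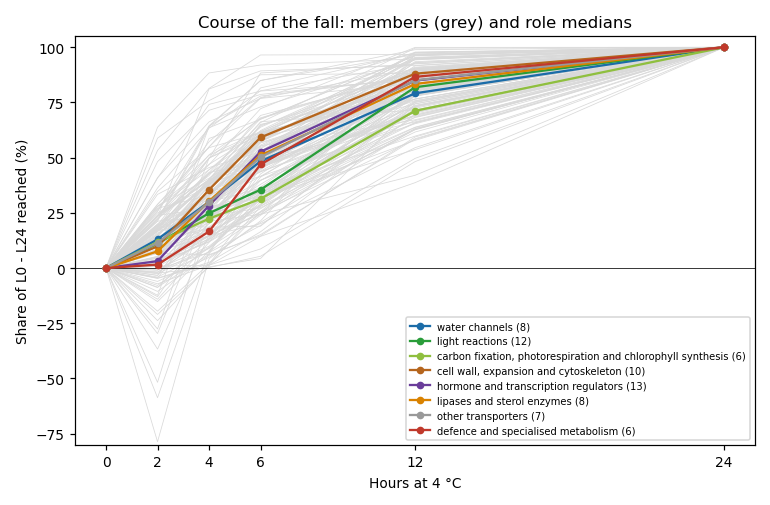
Share of the difference between 0 h and 24 h (percent, on the log2(CPM + 1) scale) reached at each time, for every member (grey) and as the median of each role group (colour, number of genes in brackets). Values below 0 are levels above 0 h; cell wall genes lie highest at 6 h (59.2%) and carbon fixation genes lowest (31.4%).

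Of the 8 water channels, 4 were tonoplast and 4 plasma membrane aquaporins. DELTA-TIP (AT3G16240, chr3:5505360-5507050 in TAIR10.1), a vacuolar membrane channel, had 2032, 3286 and 5156 CPM at 0 h (lowest, median and highest of 9 libraries) and 152, 227 and 388 CPM at 24 h. TIP2 (AT3G26520), the channel also known as TIP1;2, had 3057, 3841 and 4991 CPM at 0 h and 466, 863 and 1382 CPM at 24 h. In neither gene did the libraries of 0 h and 24 h overlap. GAMMA-TIP (AT2G36830), another abundant tonoplast channel, ran from 992 to 1900 CPM at 0 h and from 207 to 873 CPM at 24 h, and TIP2;2 (AT4G17340) from 255 to 605 CPM and from 39.5 to 123 CPM. In the plasma membrane set, PIP2B (AT2G37170) went from 76.9, 189 and 253 CPM to 10.5, 17.9 and 45.0 CPM, and PIP1;5, PIP1C and PIP3 differed by 2.23, 1.87 and 1.60 on the log2 scale. PIP2B was an early faller, with 54.8% of its difference reached at 4 h, while TIP2;2 and DELTA-TIP had reached 18.3% and 20.8%. PIP2B has a near-identical neighbour, RD28 (AT2G37180), between which the counting could split reads, so its level is uncertain; RD28 had a mean log2(CPM + 1) of 6.95 at 0 h and 3.95 at 24 h but was not lower at each step and is no member. The 8 water channels together gave a median of 1.05% of all counts at 0 h (0.838 to 1.47%) and 0.226% at 24 h (0.161 to 0.346%).

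In a list of 17 aquaporins tested, 7 were members, and TIP2;2 was a member outside the list. Of the 10 that were no members, edgeR (quasi-likelihood, p adjusted by Benjamini-Hochberg over 20720 genes) called 6 lower at 24 h than at 0 h in C28P, 5 in C35P and 4 in C28PLT, against 15.3%, 14.0% and 11.3% of all genes tested; 13.9%, 14.7% and 14.6% were called higher. The counts for other gene lists are to be read against these shares. PIP2A, the most abundant plasma membrane channel of the list by its mean log2(CPM + 1) of 12.4 at 0 h, differed by -2.97 ± 0.52 (log2, SE) in C28P, -2.59 ± 0.51 in C35P and -2.06 ± 0.50 in C28PLT. PIP2E was at -0.10 ± 0.31, 0.46 ± 0.31 and 0.90 ± 0.31, and it was the 1 gene of these 10 called higher, in C28PLT.

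The light reactions gave 12 members. AT1G51400, the photosystem II 5 kD protein, had 354, 660 and 824 CPM at 0 h and 35.1, 44.6 and 57.4 CPM at 24 h, the largest difference of the group at 3.78 on the log2 scale. PSAD-2 (AT1G03130), a stromal subunit of photosystem I that docks ferredoxin, had 481, 805 and 1048 CPM and 46.1, 104 and 168 CPM. LHCB4.2 (AT3G08940), a minor antenna protein of photosystem II, had 2860, 3560 and 3923 CPM and 302, 634 and 680 CPM. The 9 libraries of 0 h lay above the 9 of 24 h in each of these genes. LHCB2.3 and LHCB2.2, which encode near-identical antenna proteins so that their separate levels are uncertain, differed by 2.59 and 1.93, and LHCB6, another minor antenna protein, by 1.73. PETE1 (plastocyanin, the electron carrier to photosystem I; 2.39), Lhca6 (2.11), PSAH2 (1.83), FD1 (ferredoxin; 1.82) and PSB27, an assembly factor of photosystem II (1.4), completed the group with LHCA4. LHCA4 (AT3G47470), a photosystem I antenna protein, had 6307, 7347 and 8065 CPM at 0 h and 2072, 2582 and 3034 CPM at 24 h, and at 6 h it had reached 5.35% of that difference and at 12 h 48.2%. The group held a median of 2.79% of all counts at 0 h and 0.813% at 24 h.

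Most other photosystem genes on a list of 37 were lower at 24 h as well. Of its 30 genes that were no members, 27 were called lower in C28P, 26 in C35P and 22 in C28PLT by edgeR, and none of the 30 was called higher. Their median in C28P was -1.25 (log2), and the members of the list were at -1.704 (LHCA4) to -2.78 (LHCB2.3). PSAD-1, the other gene for the same photosystem I subunit, was at -1.31 ± 0.22 in C28P where PSAD-2 was at -2.76 ± 0.23, and LHCB4.1 was at -0.94 ± 0.22 where LHCB4.2 was at -2.72 ± 0.27. PSAD-2 and LHCB4.2 had been chosen for a large fall, so the pairs are given as values side by side. CAB1, the most abundant antenna gene of the list, was at -0.43 ± 0.20, -0.26 ± 0.20 and -0.18 ± 0.20 in C28P, C35P and C28PLT.

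The 6 members of carbon metabolism and chlorophyll synthesis had a median difference of 1.51 on the log2 scale, from 1.37 to 2.30. The largest was that of CA2, a carbonic anhydrase, which had 1379, 1577 and 1795 CPM at 0 h and 199, 313 and 467 CPM at 24 h. HPR, the peroxisomal hydroxypyruvate reductase of photorespiration, differed by 1.76, APE2, the triose phosphate/phosphate translocator, by 1.51, TRXF2, a thioredoxin that activates Calvin cycle enzymes, by 1.5, and CHLM, a methyltransferase of chlorophyll synthesis, by 1.41 on the log2 scale. RBCS2B, a small subunit gene of Rubisco with near-identical copies, had 2835, 4765 and 7464 CPM and 974, 1952 and 2710 CPM, and had reached 42.0% of its difference at 12 h. Of 17 Calvin cycle genes that were no members, 13 were called lower at 24 h in C28P, 12 in C35P and 11 in C28PLT, and 0 higher.

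Among 10 members of the cell wall, expansion and cytoskeleton, EXPA8 (AT2G40610, chr2:16948791-16950705 in TAIR10.1), an expansin, had 48.1, 76.8 and 130 CPM at 0 h, 6.07, 23.4 and 51.1 CPM at 2 h, and 0.783, 1.39 and 4.15 CPM at 24 h. It was among the early fallers, with 36.3% of its log2 difference reached at 2 h and 63.4% at 4 h. EXPA11, another expansin, had 52.1, 91.4 and 156 CPM at 0 h and 10.6, 21.8 and 50.9 CPM at 24 h, with 7.71% reached at 4 h. The 2 expansins thus stood at opposite ends in timing. XTH7, a xyloglucan endotransglucosylase/hydrolase, had 169, 279 and 602 CPM at 0 h and 32.4, 50.5 and 92.2 CPM at 24 h. GAE1, which makes UDP-galacturonate for pectin, differed by 1.41, the arabinogalactan protein AGP26 by 1.78, the microtubule-associated SP1L4 and SP1L3 by 2.01 and 1.52, and the actin ACT11 by 1.58 on the log2 scale. EXO, a growth gene known to respond to brassinosteroids, and TCH4, a touch-responsive xyloglucan endotransglucosylase/hydrolase, had differences of 3.77 and 3.25 and are taken up below with the conditions, because their 0 h levels ranged from 34.4 to 920 CPM and from 11.4 to 841 CPM.

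Other genes of these families were mixed. Of 17 expansins and expansin-like genes that were no members, 5 were called lower and 1 higher at 24 h in C28P, 5 and 1 in C35P, and 3 and 4 in C28PLT. Of 19 xyloglucan endotransglucosylase/hydrolases that were no members, 11 were called lower in C28P and 11 in C35P, and 2 lower and 1 higher in C28PLT. EXPA6 was at -1.83 ± 0.27, -1.77 ± 0.27 and -1.66 ± 0.27 in C28P, C35P and C28PLT, whereas EXLA1 was at -3.54 ± 0.95, -3.10 ± 0.93 and 1.61 ± 0.90. Whether the counts of calls differed between conditions was not tested.

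The 13 regulators were led by GASA6 (AT1G74670, chr1:28053030-28054149 in TAIR10.1), a small cysteine-rich protein of the gibberellin-regulated family. GASA6 had 96.7, 130 and 220 CPM at 0 h, 54.7, 135 and 178 CPM at 2 h, 3.45, 11.4 and 26.8 CPM at 12 h, and 1.42, 2.42 and 4.33 CPM at 24 h. Its fall was late, with 1.69% of the log2 difference reached at 2 h and 14.3% at 4 h, and no library of 12 or 24 h overlapped those of 0 h. PIF4 (AT2G43010), the phytochrome-interacting factor that promotes growth in warmth, had 24.3, 37.2 and 50.8 CPM at 0 h and 2.15, 2.68 and 5.42 CPM at 24 h, also with little reached at 4 h (14.8%). HAT1, a homeodomain-leucine zipper factor, had 12.0, 14.1 and 70.2 CPM and 1.02, 2.23 and 3.39 CPM. RAV2, also called TEM2, a repressor of flowering, had 56.7, 102 and 201 CPM and 9.08, 13.5 and 28.7 CPM. The auxin-linked members were AT4G38860, a SAUR-like gene and one of the earliest fallers (58.8% at 2 h), and LAX1, an auxin influx carrier (18.7% at 4 h). PYR1, an abscisic acid receptor, was among the late ones, with 6.25% at 4 h and 93.1% at 12 h.

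PIF4 and HAT1 were the 2 members of a list of 21 tested phytochrome-interacting, shade and photoreceptor genes. Of the other 19, edgeR called 4 lower and 0 higher at 24 h in C28P, 3 lower and 2 higher in C35P, and 4 lower and 0 higher in C28PLT. PIF3 was at -0.11 ± 0.36, -0.11 ± 0.36 and -0.24 ± 0.36 (log2, SE), PIF7 at 0.61 ± 0.36, 0.47 ± 0.37 and -0.39 ± 0.37, and PIF4 at -3.95 ± 0.29, -3.68 ± 0.29 and -3.96 ± 0.30 in C28P, C35P and C28PLT. GASA6 was the member of the gibberellin list, where 6 of 17 others were called lower and 3 higher in C28P.

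Other transporters included VHA-E3, an isoform of a subunit of the vacuolar proton pump, which had 18.2, 39.8 and 70.4 CPM at 0 h and 1.11, 3.11 and 7.40 CPM at 24 h. AT1G52190, a major facilitator protein, differed by 2.80 on the log2 scale. The best-ranked lipase, ARAB-1, a GDSL lipase, had 22.9, 27.4 and 43.4 CPM and 2.68, 3.38 and 6.19 CPM. The remaining genes of the top 25 were AT3G28270 (3.84 on the log2 scale), AT4G37240 (3.05), AT1G61795 (3.04), AT1G24148 (2.96), AT5G44020, annotated as an acid phosphatase (2.85), AT3G55240 (2.79), AT1G62510 (2.68), GSTU18, a glutathione transferase (2.68), and ARD4, an acireductone dioxygenase of the methionine salvage cycle (2.61). CYP79B3, which makes indole-3-acetaldoxime for glucosinolates, was the member of the glucosinolate list at 1.95; of 25 others there, 4 were called lower and 5 higher in C28P, where 15.3% and 13.9% of genes tested were.

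The 5 earliest members at 4 h were AT3G06780, a glycine-rich protein (88.4% of its difference), AT3G52060 (81.4%), AT1G76600 (81.1%), AT4G38860 (75.8%) and PIMT1, a protein-repair methyltransferase (74.1%). The 5 latest were LHCA4 (0.225%), PUP14 (0.578%), AT1G19380 (1.11%), AT1G62480 (1.29%) and CYP706A1 (1.31%). PUP14 was 0.38 and AT1G19380 0.44 above 0 h at 2 h (log2), and at 4 h the mean change of AT1G19380 was -0.70 in C28P and 0.80 in C28PLT, a difference that was not tested. LHCA4 had 6307 to 7417 CPM in the 3 C28P libraries at 0 h, 6547 to 7618 CPM at 4 h, and 2209 to 2811 CPM at 24 h.

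The 2 h libraries were not used by the rule. At 2 h the mean lay between those of 0 h and 4 h in 115 members, above 0 h in 32 and at or below 4 h in 3. The largest excess over 0 h on the log2(CPM + 1) scale was 1.68 for TCH4, followed by AT1G72940 (1.1), AT1G32920 (1.03), AT4G37240 (0.90) and HAT1 (0.76), named after their values were seen. All of these are set against the 0 h level that the rule used, so they carry no test.

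**Figure D4:**
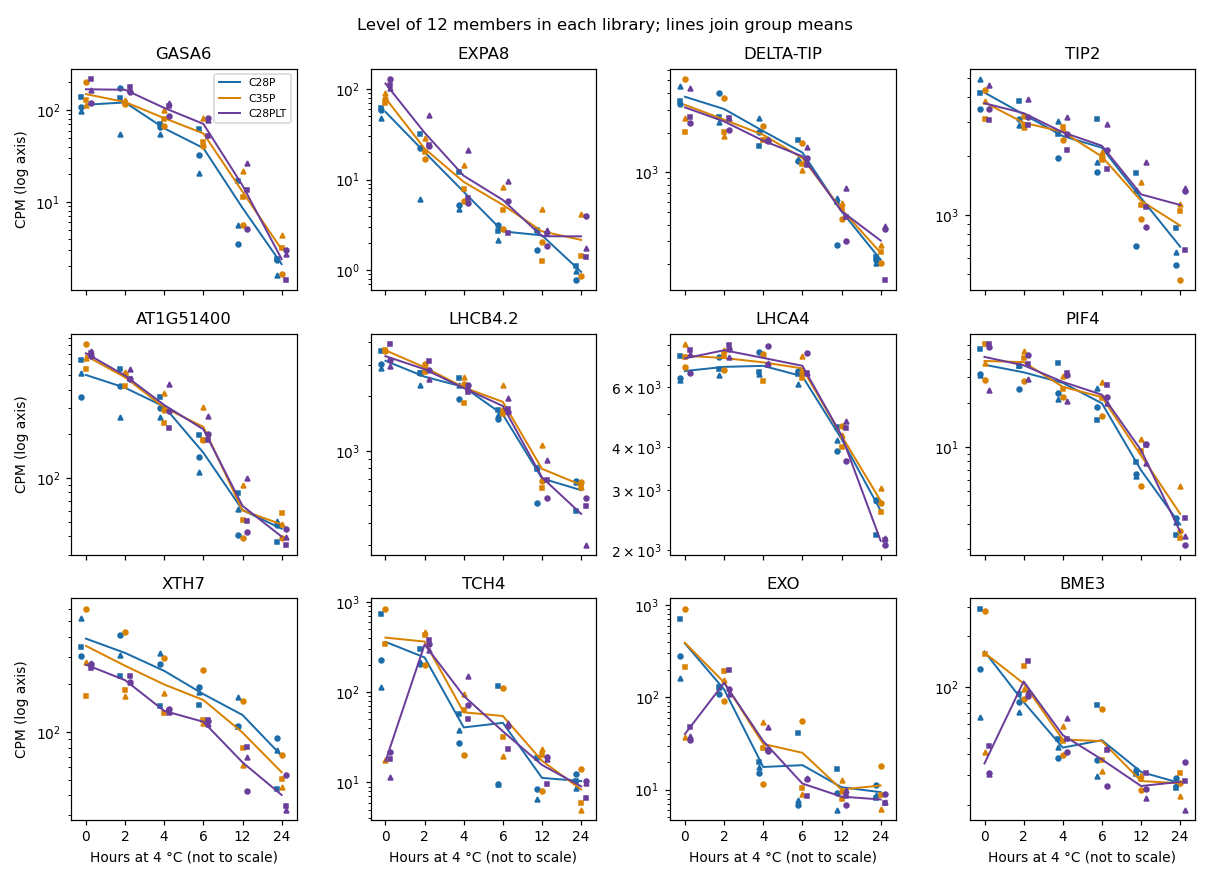
CPM (log axis, a separate scale in each panel) of 12 members in each library by hours at 4 °C; points are libraries, with circles for Exp1, squares for Exp2 and triangles for Exp3, and lines join the group means. GASA6 and LHCA4 stay near their 0 h level at first and EXPA8 does not; TCH4, EXO and BME3 are low at 0 h in the 3 C28PLT libraries and in the C35P library of Exp3.

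The members were lower at 24 h than at 0 h in each condition. On the scale of the column totals, the median change of log2(CPM + 1) over members was -1.88 in C28P, -1.83 in C35P and -1.88 in C28PLT. Without the C28P library of Exp1 at 0 h the C28P value was -2.03. With TMM scaling in edgeR the medians were -2.33, -2.17 and -1.96. The median over all genes tested was 0.25, 0.18 and 0.01 on column totals and 0.04, 0.05 and 0.02 with TMM, and relative to that median the members were at -2.13, -2.01 and -1.89 on column totals and at -2.37, -2.22 and -1.98 with TMM. The 3 conditions stood in the same order with TMM and on column totals relative to all genes, but not in the column-total medians themselves. By experiment, on column totals, the medians were -1.7, -2.04 and -1.90 in C28P, -2.12, -1.87 and -1.72 in C35P, and -1.85, -1.94 and -1.87 in C28PLT for Exp1, Exp2 and Exp3, so the ranges of the conditions overlapped. Called lower at 24 h were 150 members in C28P, 146 in C35P and 133 in C28PLT, against 15.3%, 14.0% and 11.3% of genes tested. At 2 h edgeR called 0 members lower in each condition, against 0.208%, 0.541% and 0.555% of genes tested in C28P, C35P and C28PLT. At an unadjusted p under 0.05 in either direction there were 29, 23 and 21 members, against 12.1%, 9.44% and 11.1% of genes tested. DESeq2 called 2, 2 and 3 members lower, where it called 144, 192 and 201 of 20720 genes lower. At 4 h the counts were 31, 38 and 31 members (3.88%, 4.61% and 5.22% of genes tested), at 6 h 101, 80 and 68 (9.71%, 8.57% and 8.22%), and at 12 h 139, 137 and 130 (10.5%, 12.5% and 12.5%). The rule used these contrasts, or their 0 h libraries, and nothing is read from the counts.

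The rule averaged over conditions, so the tests made are between conditions at the same time. Their plants differed in age, in an earlier cold spell or in both. These tests are not free of the rule, since a gene high at 0 h in 1 condition can pass through that condition. In C28PLT, TCH4 was 2.23 at 4 h and 1.05 at 6 h above its 0 h mean (log2), and BME3 0.54 at 4 h. Both genes met the order at those steps through C28P and C35P, so their 0 h calls are a description only. At 0 h C28PLT plants were older than C28P plants and had been in the cold before, so age and earlier cold cannot be told apart there. The stated schedule does not give C28PLT and C35P plants the same age in days either. At 0 h, TCH4 and BME3, a GATA zinc finger factor, were called lower in C28PLT than in C28P, 2 members of 150 (edgeR, quasi-likelihood, Benjamini-Hochberg), against 0.125% of genes tested, all of them lower. TCH4 had 226, 739 and 114 CPM in the C28P libraries of Exp1, Exp2 and Exp3 and 21.8, 18.2 and 11.4 CPM in those of C28PLT, and the groups did not overlap. BME3 had 129, 293 and 66.5 CPM in C28P and 30.8, 44.4 and 30.3 CPM in C28PLT, again without overlap. The log2 fold changes were -4.41 ± 0.93 (SE) for TCH4, adjusted p = 0.0352 by edgeR, and -2.24 ± 0.45 for BME3, adjusted p = 0.0288. Such lack of overlap was not counted over all genes tested. It comes from the libraries that gave the calls and adds nothing to them. At an unadjusted p under 0.05 there were 12 members, 11 of them lower in C28PLT, against 7.29% of genes tested. Both calls were lost without any 1 of 5 libraries, namely C28P Exp1 (the library that stood apart), C28P Exp2 and each C28PLT library of 0 h. Over these leave-one-out fits of edgeR the adjusted p ran from 0.0555 to 0.376 for TCH4 and from 0.0555 to 0.353 for BME3. Without C28P Exp3 at 0 h there were 3 calls, with EXO added, against 0.539% of genes tested. In that edgeR fit the adjusted p was 0.0117 for TCH4 and 0.00473 for BME3.

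Against C35P at 0 h, edgeR called 0 members, against 0.00483% of genes tested, with 11 at an unadjusted p under 0.05, all lower in C28PLT, against 3.63% of genes tested at that level; DESeq2 called 4 lower (EXO, TCH4, BME3 and AT1G72940), against 0.236% of genes tested. The C35P libraries of Exp1, Exp2 and Exp3 had 841, 344 and 17.56 CPM of TCH4 and 281, 157 and 41.0 CPM of BME3, so that the Exp3 library lay within the range of the C28PLT libraries for both genes. The log2 fold changes were -4.72 ± 0.94 for TCH4 (adjusted p = 0.0557, edgeR) and -2.31 ± 0.45 for BME3 (adjusted p = 0.0557). Without the C35P library of Exp3 at 0 h edgeR called 5 members lower, against 0.434% of genes tested, and without that of Exp2 it called 3, against 0.0906%. DESeq2 called 5 members lower against C28P, adding AT4G37240, where it called 0.569% of genes tested lower. EXO, which was not called by edgeR and is named for its values, had 284, 710 and 162 CPM in C28P, 920, 214 and 37.4 CPM in C35P and 34.4, 48.0 and 38.3 CPM in C28PLT.

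The 0 h levels of these genes varied widely, within C35P and C28P as well as between conditions. The ratio of the highest to the lowest of the 9 libraries, taken on CPM + 1, was 67.7 for TCH4, 26.0 for EXO and 9.39 for BME3. It was at least 5 in 15 members (10.0%), against 4.96% of the 7969 genes at or above the floor. The median was 2.19 over members and 1.96 over those 7969 genes. At 2 h TCH4 had 206, 302 and 218 CPM in C28P, 199, 428 and 461 CPM in C35P, and 339, 375 and 295 CPM in C28PLT. At 24 h all 9 libraries held 5.0 to 14.2 CPM of TCH4 and 18.7 to 35.6 CPM of BME3, and the conditions overlapped. Measured from its own 0 h, the fitted log2 change of TCH4 at 2 h was -0.65 in C28P and 4.25 in C28PLT, while the 2 h libraries of these conditions overlapped. At 2 h edgeR called 4 members (2.67%) higher than at 0 h in C28PLT, near the 2.22% of genes tested. In C28P and C35P it called 0 members higher, where it called 38 and 295 of the 20720 genes tested. The rule used the 0 h libraries, so nothing is read from these counts.

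**Figure D5:**
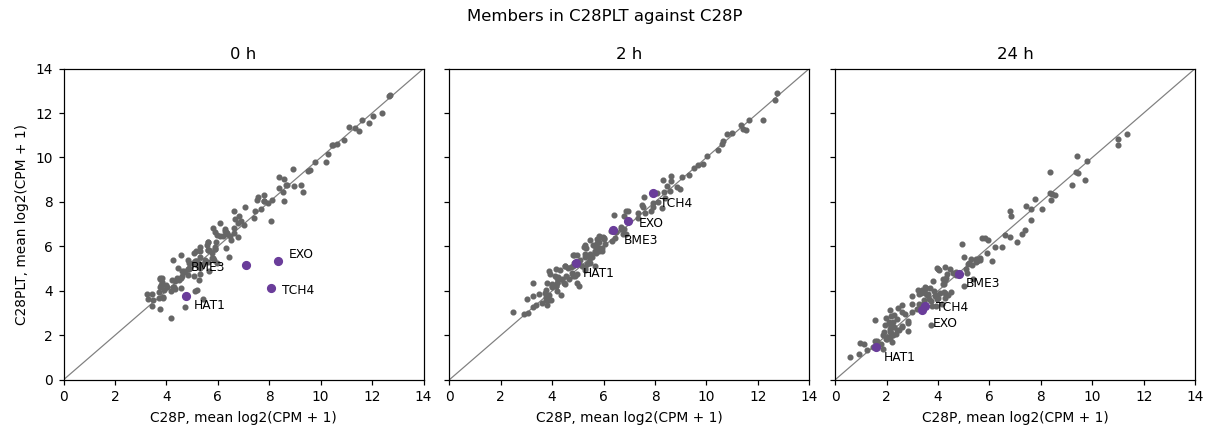
Mean log2(CPM + 1) of each member over 3 libraries in C28PLT (vertical) against C28P (horizontal) at 0, 2 and 24 h; the line marks equal levels. TCH4, EXO and BME3 lie far below the line at 0 h and near it at 2 h and 24 h.

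At the later times edgeR called 0 members between C28PLT and C35P, and also 0 of all genes tested. At an unadjusted p under 0.05 there were 0, 0, 0, 2 and 6 members at 2, 4, 6, 12 and 24 h, and DESeq2 called 0 members at these times. The shares of all genes tested at that unadjusted level were 0.849%, 0.888%, 0.55%, 0.994% and 3.23%. Between C35P and C28P, edgeR and DESeq2 called 0 members at any of the 6 times, and edgeR gave 0, 0, 0, 3, 0 and 5 at an unadjusted p under 0.05. What DESeq2 called over all genes tested is not given for either pair of conditions here. Nothing is therefore read from its counts of 0. Of all genes tested, edgeR called 0.0241% at 0 h and 0 at the later times. At that unadjusted level were 2.2%, 1.57%, 1.21%, 2.55%, 1.06% and 1.64% at the 6 times in order. The fitted log2 difference was within 1 in 150 members for C35P against C28P at 0 h, against 95.3% of genes tested. It was within 1 in 147 members for C28PLT against C35P at 24 h (94.7% of genes tested), and in 123 for C28PLT against C28P at 24 h (88.8%). The median SE for a single member was 0.37. A difference within that error was not detectable with 3 libraries a group. Larger ones also went uncalled, such as 1.29 ± 0.40 for GAMMA-TIP between C28PLT and C28P at 24 h.

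Between C28PLT and C28P at 24 h edgeR called 0 members, and also 0 of all genes tested, and DESeq2 called 0 members. What DESeq2 called over all genes tested is not given for this comparison, so nothing is read from its 0. By edgeR 32 members (29 higher and 3 lower in C28PLT) had an unadjusted p under 0.05, against 12.8% of genes tested at that level. GAMMA-TIP was first, with 873, 421 and 758 CPM in C28PLT and 207, 535 and 303 CPM in C28P, a log2 fold change of 1.29 ± 0.40 and an adjusted p of 0.362 by edgeR; the groups overlapped. All 8 water channels had a higher fitted level in C28PLT, where 75.3% of members and 48.3% of genes tested did. Their median log2 difference was 0.83, with 3 of 8 at an unadjusted p under 0.05 by edgeR. The 12 genes of the light reactions had a median of 0.04. Genes of a role group are not replicates. For Exp1, Exp2 and Exp3, water channels gave 0.346%, 0.188% and 0.308% of all counts in C28PLT. In C28P they gave 0.180%, 0.226% and 0.176%, so Exp2 went the other way. The median over all members was 0.31 with TMM and 0.02 on column totals, where all genes tested were at -0.02 and -0.19. Against C35P, 7 of the 8 water channels were higher in C28PLT at 24 h, where 61.3% of members and 48.1% of genes tested were. Their median was 0.59, with 2 of 8 at an unadjusted p under 0.05 by edgeR, and none was called. In C35P they gave 0.161%, 0.256% and 0.255% of all counts, so Exp2 again went the other way.

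The difference between the responses of 2 conditions, each measured from its own 0 h, was tested for C28PLT minus C35P and for C35P minus C28P at 5 times. EdgeR called 0 members in all 10, and also 0 of the 20720 genes tested. For C28PLT minus C35P, 7, 9, 6, 6 and 9 members had an unadjusted p under 0.05 at 2, 4, 6, 12 and 24 h, all with the more positive response in C28PLT, against 1.48%, 2.1%, 1.55%, 1.39% and 3.01% of genes tested. For C35P minus C28P the numbers were 0, 0, 0, 0 and 1 member, against 1.39%, 1.26%, 1.49%, 1.52% and 2.01%. TCH4 came first in 5 of 5 C28PLT comparisons, at 5.44 ± 1.22 (log2, SE) with an adjusted p of 0.363 by edgeR at 4 h, where DESeq2 called it (adjusted p = 0.0177) with 0.0434% of genes tested. Without the C35P library of Exp3 at 0 h, edgeR called 1 member at 2 h, 3 at 4 h and 2 at 24 h, against 0.0238%, 0.186% and 0.0334% of genes tested. These comparisons share the 0 h libraries described above, and so are not separate evidence of a difference.

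Members also differed from the other genes in where they lie and how long they are. Of the 150, 60 (40.0%) were on chromosome 1, against 26.4% of genes tested and 25.3% of the genes at or above the floor, and 23 (15.3%) were on chromosome 5, against 23.3% of genes tested. The longest annotated transcript had a median of 1315 bases in members, 1688 in genes tested and 1555 in genes at or above the floor. Protein-coding genes made up 148 of the 150. The pairs AT1G52710 with AT1G52720 and TIR with AT1G72940 lie next to each other with 0 protein-coding genes between them. TIR and AT1G72940 encode similar TIR-domain proteins on the same strand, so that their separate counts are uncertain. No test was made on these shares.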

How the data were processed

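Whole-rosette RNA of 54 libraries was read from 1 table of raw counts per gene that the authors deposited. Per the submitters' processing notes, Trimmomatic, STAR 2.7.9a, DESeq2 and the TAIR10 build were used; neither the annotation release nor how strand and multiply matching reads were counted is stated in the sources used here. Per the labels' protocols the library kit marks strand. Coordinates and promoter windows came from TAIR10.1 (RefSeq), to which 36632 of 36632 gene IDs were matched, since the table holds none.

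CPM used column totals, with a pseudocount of 1. Tests used edgeR 4.0.16 in R 4.3.3 (quasi-likelihood, TMM, filterByExpr with a minimum count of 10, 1 term for each of 18 groups) over 20720 genes, with Benjamini-Hochberg adjustment and a threshold of 0.05; all 150 members were tested. DESeq2 1.42.0, other scaling, no filter, a length offset, an experiment block and leaving out libraries were alternatives. The edgeR fit was tested on simulated counts with known changes between C28PLT and C35P at 24 h. Other steps were not tested in this way. The members and gene lists were chosen with earlier results of these data known, and role groups after the members were seen. Genes named are the top 25, list members, called members, those next to rank 150 and the 5 earliest and latest; others come from the role groups or are said to be named for their values.

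Libraries held 23408399 to 34452480 counts. The labels give the replicate number as an independent experiment, so libraries of 1 number share an experiment; their deviations from group means correlated at a median of 0.19, with a lowest value of -0.77, and at -0.09 between experiments.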

Additional observations from a re-analysis of the deposited data

Results flagged for a closer look

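In 14 cases, covering 11 members, all 3 C28P libraries moved one way from their 0 h mean and all 3 C28PLT libraries the other. The difference between these conditions was not tested, and such cases were not counted over all genes. The 0 h mean of C28P includes the Exp1 library that stood apart. TCH4, EXO and BME3 were low in C28PLT at 0 h, the level from which these changes are measured. Values are mean changes of log2(CPM + 1), C28P first and C28PLT second. At 2 h they were -1.38 and 1.78 for EXO, -1.44 and 1.06 for AT1G76600, 0.60 and -0.17 for EXPA11, -0.74 and 1.58 for BME3, and -0.69 and 0.72 for GAE1. At 4 h they were -2.75 and 2.23 for TCH4, -0.70 and 0.80 for AT1G19380, -0.98 and 0.62 for AT3G25600, 0.19 and -0.54 for PYR1, -1.63 and 0.54 for BME3, and -0.72 and 1.15 for AT1G72940. At 6 h they were -3.49 and 1.05 for TCH4, -0.58 and 0.67 for PUP14, and -1.0 and 0.79 for AT1G72940. Between C35P and C28PLT there were 12 such cases in 10 members, and between C28P and C35P there were 0. For C28PLT minus C35P, edgeR tested the difference of the responses and called 0 members, and also 0 of all genes tested.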

How the results depend on the processing

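The calls between C28PLT and C28P at 0 h rested on few libraries. Their number was 2 with DESeq2's size factors, the length offset and the experiment block, 1 without a filter on low counts, where TCH4 was at -4.41 with an adjusted p of 0.0848 by edgeR, 5 with DESeq2, and 0 to 3 when libraries or experiments were left out. In those fits TCH4 ranged from -4.86 to -3.40 and BME3 from -2.53 to -1.59. Between C28PLT and C35P the number was 4 with DESeq2 and 0 to 5 with libraries left out. For the differences of responses it was 1 with DESeq2 and 0 to 3 with libraries left out, and for C35P against C28P it was 0 in each alternative run. The experiment block gave 0 members in those 3 families and changed no call. Median log2 changes at 24 h ranged, leaving out each experiment, from -2.47 to -2.23 in C28P, from -2.39 to -1.88 in C35P and from -2.05 to -1.87 in C28PLT. Of the 150 members, 74 were kept when the order was required in each condition, 128 with TMM-scaled CPM and 114 to 146 with libraries left out; the cause was not tested. Depth was not varied here, and a single member carries a median SE of 0.37 (log2) between groups of 3 libraries.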
